A study of Mus musculus with 3 samples.

Results

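H3K27ac peaks whose centres lay in long terminal repeat (LTR) elements or long interspersed nuclear elements (LINEs) were examined in mouse beige adipocytes. The set held every peak on chromosomes 1 to 19 for which the deposited annotation named a repeat of class LTR or LINE at the peak centre. It comprised 1238 of 17450 H3K27ac peaks on these chromosomes (7.09%, 95% interval 6.72 to 7.49), of which 685 were in LTR elements and 553 in LINEs. A further 12 such peaks on X and 2 on Y were left out by the rule.

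The cells were beige adipocytes, heat-producing fat cells found in white depots, obtained in culture from stromal-vascular cells of inguinal white adipose tissue of C57BL/6 mice. After 3 days in 20% fetal bovine serum the cultures were fed until confluent. Induction lasted 48 h in 10% serum with troglitazone at 5 µM, T3 at 50 nM, dexamethasone at 1 µM, isobutylmethylxanthine at 0.5 mM and insulin at 5 µg/ml. Troglitazone, T3 and insulin were then continued for 6 days. All 3 libraries, 1 each for H3K27ac ChIP, Foxp4 ChIP and input DNA, came from cells treated alike, with no untreated or undifferentiated group. The sources used here give neither the age nor the number of the mice, nor whether they were pooled. With 1 library per antibody no test across samples was possible. All intervals are 95% intervals over peaks, exact (Clopper-Pearson) for shares and from order statistics for medians, and they cover counting error only. Sequencing depth is unknown from the lists.

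LTR elements and LINEs are retrotransposons, sequences that spread through the genome by way of an RNA copy. LTR elements derive largely from endogenous retroviruses, whose LTRs hold promoter and enhancer sequences and flank an internal, protein-coding part. LINEs, chiefly L1, carry their own promoter at the 5' end, and most copies are truncated there. Many retrotransposons are silenced in somatic cells by DNA methylation and repressive histone marks, while some copies act as promoters or enhancers, which carry acetylation of histone H3 at lysine 27 (H3K27ac).

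Upstream promoter sequences could be shown for the few peaks that reached such a window. Of the members searched, 4 overlapped the 250 bases upstream of a RefSeq transcription start site (TSS) on GRCm38.p6, the assembly of mm10. The windows of 3 genes with more than marginal overlap are printed 5' to 3', because they show where peaks centred in these repeats reached sequence just upstream of an annotated start. The peak centre lay inside the window at Gm39090 alone of the 3. Capitals mark TATAAA, the core of the TATA box, on either strand.

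Erbin, chr13:103920587-103920836, minus strand: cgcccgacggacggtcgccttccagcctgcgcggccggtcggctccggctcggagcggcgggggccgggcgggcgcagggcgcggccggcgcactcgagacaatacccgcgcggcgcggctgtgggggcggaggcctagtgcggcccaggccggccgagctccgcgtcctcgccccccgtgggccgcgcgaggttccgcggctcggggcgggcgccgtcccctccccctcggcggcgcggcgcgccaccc

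Gm39090, chr7:127691336-127691585, plus strand: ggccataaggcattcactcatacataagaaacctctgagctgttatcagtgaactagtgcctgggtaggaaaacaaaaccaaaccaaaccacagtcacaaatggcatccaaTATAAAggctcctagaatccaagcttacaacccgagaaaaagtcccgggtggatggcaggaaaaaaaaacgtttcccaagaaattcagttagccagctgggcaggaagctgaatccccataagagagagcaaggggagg

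Gm13073, chr4:149780938-149781187, minus strand: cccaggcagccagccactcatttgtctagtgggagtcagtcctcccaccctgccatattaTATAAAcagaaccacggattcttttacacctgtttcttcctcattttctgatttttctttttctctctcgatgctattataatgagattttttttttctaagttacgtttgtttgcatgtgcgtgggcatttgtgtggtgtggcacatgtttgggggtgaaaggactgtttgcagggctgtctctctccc

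The Erbin window was covered over all 250 bp by a peak of score 112 that was centred 348 bp from the TSS in an LTR10_RN element in intron 1. Erbin encodes a scaffold protein that binds the receptor ErbB2. The window had a GC content of 84.0% and 49 CpG dinucleotides, against medians of 52.4% and 6 over 32851 windows of the same length, so the printed sequence is that of a CpG-rich promoter beside the element. The Gm39090 window was likewise covered over 250 bp, by a peak of score 40 at chr7:127691058-127691730 in RLTR31D_MM. That peak had its centre inside the window, 192 bp from the TSS of this long noncoding RNA. GC content was 46.0% there with 3 CpG, and TATAAA began 139 bp before the TSS. The Gm13073 window, of another long noncoding RNA, was covered over 154 bp by a peak of score 33 at chr4:149781034-149781487 in MTC, which did not reach the TSS. The GC content of this window was 44.0% with 4 CpG, and TATAAA began 190 bp before the TSS. TATAAA occurred in 12.4% of all windows. On both strands these windows held no match to the AP-1 motif TGANTCA (6.75% of all windows), to the C/EBP motif TTGCNNAA (9.56%) or its palindromic form TTGCGCAA, which the former includes (0.164%), or to a direct repeat of AGGTCA with a 1-base spacer as bound by PPAR and RXR (0.0335%). The deposited annotation assigned the peaks at Gm39090 and Gm13073 to other genes, Mir762 at -17093 bp and Slc25a33 at -6993 bp.

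Each peak carries a score given by the authors, which was used only to describe and rank peaks within the H3K27ac list. Across all 17450 peaks scores ran from 20 to 351 with a median of 40. Of marker genes, 7 of 8 adipocyte genes had an assigned H3K27ac peak and 6 had one with its centre within 1000 bp of the TSS (Pparg, Cebpa, Plin1, Lipe, Cd36 and Lpl), while Adipoq had none. Of 8 beige or brown fat genes, 3 had a peak (Ebf2, Ppargc1a and Cox8b), and Ucp1, Prdm16, Dio2, Adrb3 and Cidea had none. Of these 8 genes, 1 (Ebf2) had a peak within 1000 bp of the TSS. For genes of other cells the counts were 5 of 6 for adipocyte progenitors, 2 of 5 for macrophages, 3 of 5 for endothelium and 0 of 5 for skeletal muscle. Within 1000 bp of the TSS the counts for these cells were 2, 1, 0 and 0, in the same order. Over all protein-coding genes, 7801 of 20665 had an assigned H3K27ac peak and 5407 had a peak at the promoter. The beige or brown fat count, 3 of 8, and the macrophage count, 2 of 5, lay near the share of 7801 of 20665. With so few marker genes, no difference from all genes was tested. In a bulk culture, acetylation in few cells and weak acetylation in many cannot be told apart.

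H3K27ac peaks were sparse in LINEs and LTR elements relative to the sequence these elements occupy. In the authors' deposited table, which covers the whole list, 561 H3K27ac peaks fell in 543.6 Mb of LINE sequence, which is 1.03 per Mb, with a log2 ratio of observed to expected peaks of -2.64. In the authors' deposited table LTR elements held 691 peaks in 313.0 Mb, 2.21 per Mb, with a log2 ratio of -1.55. SINEs, the short retrotransposons that are common in gene-rich sequence, held 5.54 peaks per Mb in the authors' deposited table, with a log2 ratio of -0.22. For Foxp4 the authors' deposited table gave log2 ratios of -0.77 for LINEs and -0.26 for LTR elements. By these ratios the depletion was deeper for LINEs than for LTR elements in both lists. These ratios set peaks against total length, and peaks assigned to promoter, exon and UTR classes are not counted under repeats.

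**Figure D1:**
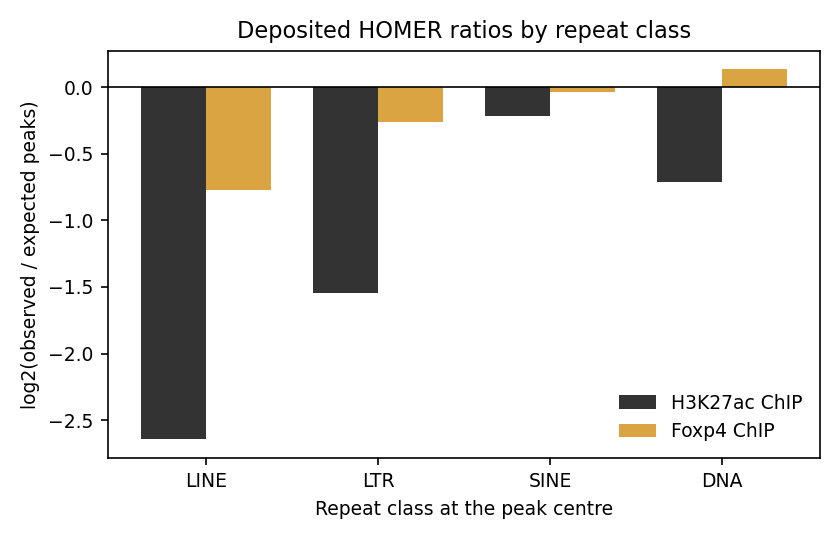
Log2 ratio of observed to expected peaks (y axis) for 4 repeat classes, LINE, LTR, SINE and DNA transposons (x axis), as the authors' deposited tables give it for the H3K27ac (dark) and Foxp4 (yellow) lists, with no error available. H3K27ac is lowest in LINEs at -2.64, then in LTR elements at -1.55.

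LTR and LINE peaks were lower-scoring and narrower than the list as a whole. The median score was 34 (interval 34 to 36), against 40 (40 to 41) over all peaks, 37 (37 to 37) for 1085 peaks in SINEs and 38 (37 to 39) for 8721 intronic or intergenic peaks outside repeats. LTR and LINE peaks had near-equal median scores of 35 and 34. The share with a score in the higher-scoring 10% of the list (78 or more) was 2.26% (28 peaks, interval 1.51 to 3.25), against 3.69% of SINE peaks and 5.85% of peaks outside repeats. The median width was 425.5 bp (416 to 435), against 530 bp over all peaks, 461 bp in SINEs and 503 bp outside repeats. Peaks wider than 1000 bp made up 6.38% of the set and 13.9% of peaks outside repeats. Centres within 1000 bp of a TSS made up 12.6% of peaks outside repeats, 4.88% of SINE peaks and 1.37% of members. The part of this mix in the comparisons here and below was not tested. Peaks of lower score lie nearer the limit of detection, and a score of 37, held by far more peaks than its neighbouring values, occurred in 10.3% of members and 5.59% of all peaks.

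The LTR members comprised 318 ERVL-MaLR peaks (46.4% of LTR peaks), 212 ERVK, 78 ERVL and 75 ERV1 peaks, with 1 each under Gypsy and Gypsy?. ERVL-MaLR elements are old nonautonomous repeats that include the rodent MT and ORR1 names and the older MLT names, and ERVK includes the intracisternal A particle (IAP) elements. The LINE members comprised 488 L1, 53 L2, 11 CR1 and 1 RTE-X peak. L2 and CR1 are ancient and no longer move, whereas some mouse L1 copies still move. L2 peaks had the highest median score of these families with at least 50 peaks, 43 (34 to 49), and 30 of 53 were at or above the list median (56.6%, 42.3 to 70.2). The share of all H3K27ac peaks at or above it, 51.7%, lay inside this interval. For L1 the median score was 34 (33 to 37), with 31.1% at or above the list median (27.1 to 35.5).

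**Figure D2:**
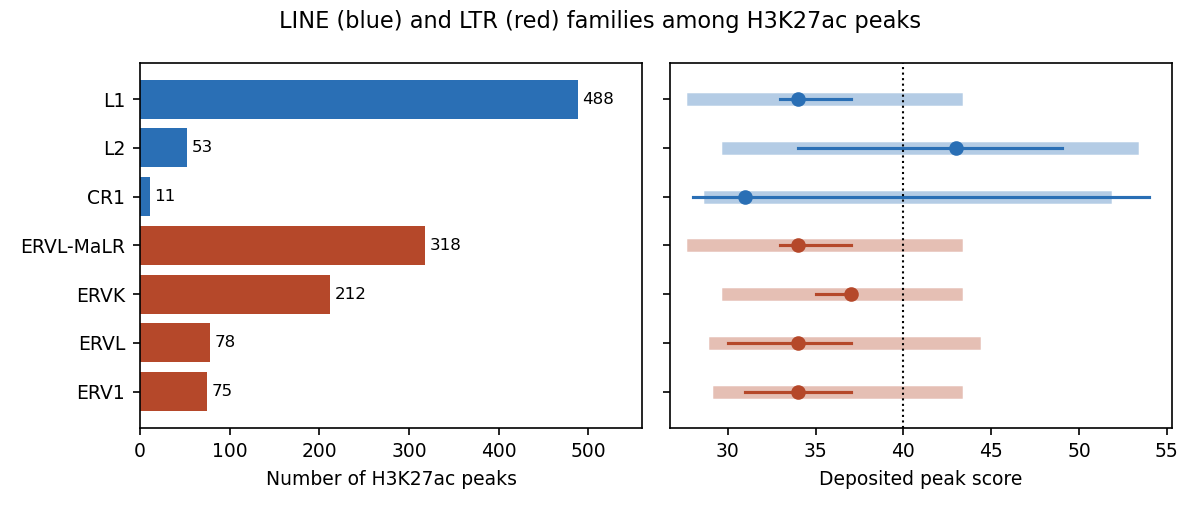
Left, number of H3K27ac peaks (x axis) in each LINE (blue) or LTR (red) family (y axis), with L1 at 488 and ERVL-MaLR at 318. Right, deposited peak score (x axis) for the same families, as the median (point), its 95% interval (thin line) and the middle 50% of peaks (pale bar), with the list median of 40 dotted; L2 has the highest median, 43, and an interval that spans the list median.

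By name, 910 members (73.5%, 71.0 to 75.9) matched a pattern of rodent names and 313 (25.3%) a pattern of names shared across mammals, while 15 members had a name in neither group. The grouping follows the start of the name, so 2 members with names ending in _RN (LTR10_RN and LTR72_RN), a suffix used for rat repeats, count as mammalian-named. Across chromosomes members made up from 4.44% of H3K27ac peaks on chromosome 11 to 9.63% on chromosome 18. Rodent names made up 83.5% of LTR peaks and 61.1% of LINE peaks. The members carried 333 repeat names, 158 of which occurred once. The 10 most frequent held 282 peaks: 41 L1Md_T, 39 L1Md_F2, 38 MTD, 28 L1Md_A, 27 Lx8, 26 MTC, 25 L1_Mus3, 20 IAPEz-int, 19 L2 and 19 ORR1F. L1Md names, which include the youngest mouse L1 copies, comprised 120 peaks, 21.7% of LINE peaks (18.3 to 25.4), beside 147 under Lx and 140 under L1M names. Their median score was 30 (30 to 34) and their median width 379.5 bp, both below the medians of the set. The sources used here do not say how reads that map to several near-identical copies were treated, and the part of this in the counts of L1Md and IAP peaks was not tested.

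Most of the set lay outside genes and far from promoters. Intergenic peaks made up 59.9% (742 peaks, 57.1 to 62.7), against 42.2% in SINEs (39.3 to 45.2) and 36.9% outside repeats (35.9 to 37.9). The share was 60.4% in LTR elements and 59.3% in LINEs. Of 496 intronic members 37.5% lay in intron 1 (33.2 to 41.9), against 48.5% of intronic SINE peaks and 50.7% of intronic peaks outside repeats. The median distance from peak centre to the nearest TSS was 31170 bp (27869 to 34492), against 14809 bp in SINEs and 17322 bp outside repeats. It was 27064 bp (24065 to 31263) for LTR peaks and 36365 bp (31150 to 43946) for LINE peaks. More than 50 kb separated 38.5% of members from the nearest TSS, against 17.6% of SINE peaks and 25.2% of peaks outside repeats.

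**Figure D3:**
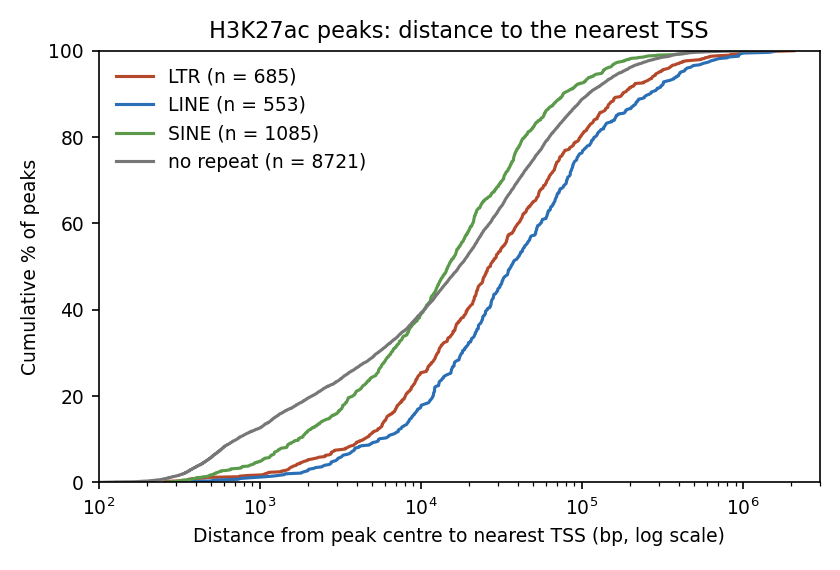
Cumulative percentage of H3K27ac peaks (y axis) by distance from the peak centre to the nearest TSS in bp (x axis, log scale) for peaks in LTR elements (red), LINEs (blue), SINEs (green) and introns or intergenic sequence outside repeats (grey). The LTR and LINE curves lie to the right, with medians of 27064 and 36365 bp, and the LINE curve is the farther of the pair.

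Peak centres within 1000 bp of the TSS occurred in 17 members (1.37%, 0.802 to 2.19), against 36.4% of all H3K27ac peaks on these chromosomes. The rule itself keeps this share low beside that of all peaks, since the deposited annotation names promoter, exon and UTR classes before repeats. SINE peaks and peaks outside repeats, which passed the same order, had shares of 4.88% (3.68 to 6.34) and 12.6% (11.9 to 13.3). All 17 members lay in introns downstream of the TSS. Beside Erbin, the highest-scoring were Ugt1a6b (82, MER21B, 453 bp from the TSS), which encodes a glucuronosyltransferase, Zfp386 (77, RMER15, 838 bp), Syncrip (68, L1M4b, 754 bp), which encodes an RNA-binding protein, and Sec23ip (68, L2c, 525 bp). Apobec1, which encodes a cytidine deaminase that edits apolipoprotein B mRNA, had a peak of score 66 in RLTR19-int at 386 bp. Mill2 (52, RMER10B), Zdhhc1 (45, L2a), Exog (43, MTE2b) and Gm14326 (42, RMER17B) followed. The members just inside this limit were at Aimp2 (868 bp) and Zfp386, and those just outside were at Sult1a1 (1031 bp) and Nktr (1033 bp).

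Members stood farther from other acetylated sites than SINE peaks or peaks outside repeats did. Another H3K27ac peak lay within 10 kb of 526 members (42.5%, 39.7 to 45.3), against 53.7% of all H3K27ac peaks, 63.5% of SINE peaks (60.6 to 66.4) and 57.4% of peaks outside repeats (56.4 to 58.5). The share was 47.7% for LTR peaks (43.9 to 51.6) and 36.0% for LINE peaks (32.0 to 40.1). The median gap to the nearest other peak was 16002 bp (12866 to 18417), against 4862 bp in SINEs and 6369 bp outside repeats. Gaps over 100 kb occurred in 22.5% of members, 17.4% of LTR peaks and 28.9% of LINE peaks, against 5.25% of SINE peaks and 8.85% of peaks outside repeats. The nearest gene had an H3K27ac peak at its promoter for 40.4% of members (37.6 to 43.2), against 55.6% of SINE peaks and 53.9% of peaks outside repeats. This held for 55.7% of members with a neighbour within 10 kb (51.3 to 60.0) and for 29.1% of members without one (25.8 to 32.6). By this definition a peak centred within 1000 bp of a TSS counts as the promoter peak of its own nearest gene. Such peaks were 1.37% of members, 4.88% of SINE peaks and 12.6% of peaks outside repeats, so they add unequally to these shares. Shares without them were not computed.

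Within LINEs the values for this spacing ran apart by name. Rodent-named LINE peaks had a neighbour within 10 kb in 28.4% (23.7 to 33.5) and a median gap of 44610 bp, whereas mammalian-named LINE peaks had one in 48.6% (41.7 to 55.5) and a median gap of 10282 bp. Among L1Md names 19 of 120 had a neighbour (15.8%, 9.81 to 23.6) and the median gap was 135370 bp (78687 to 186713). The nearest gene of 19.2% of L1Md peaks had an acetylated promoter (12.6 to 27.4). The rodent-named groups were not alike. Lx names, 147 peaks, had a neighbour in 41.5% (33.4 to 49.9), near the 44.3% of mammalian-named L1M peaks (35.9 to 52.9). L1_Mus and L1_Mur names had one in 23.4% (13.8 to 35.7), and the L2 family in 58.5% (44.1 to 71.9). Of single names, 1 of 28 L1Md_A peaks, 4 of 41 L1Md_T and 8 of 39 L1Md_F2 peaks had a neighbour. The counts were 16 of 27 for Lx8, also a rodent name, and 12 of 19 for L2. For LTR elements the rodent-named and mammalian-named shares, 47.2% (43.0 to 51.4) and 51.5% (41.3 to 61.6), had overlapping intervals.

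Within LTR elements the internal parts had wider gaps than the remaining names. The 134 peaks in names ending in -int, the internal parts, had a neighbour within 10 kb in 23.1% (16.3 to 31.2) and a median gap of 39606 bp (26691 to 65588). The other 551 LTR peaks had one in 53.7% (49.5 to 57.9) and a median gap of 8182 bp (6267 to 10033). Their median scores, 36.5 and 34, had overlapping intervals (34 to 37 and 33 to 37). IAP names, 29 peaks of which 26 were intergenic (89.7%), had a neighbour in 4 cases (13.8%, 3.89 to 31.7). Without the L1Md and IAP names, a setting added after the values were seen, 46.2% of the remaining 1089 members had a neighbour (43.2 to 49.2) and the median gap was 12122 bp.

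**Figure D4:**
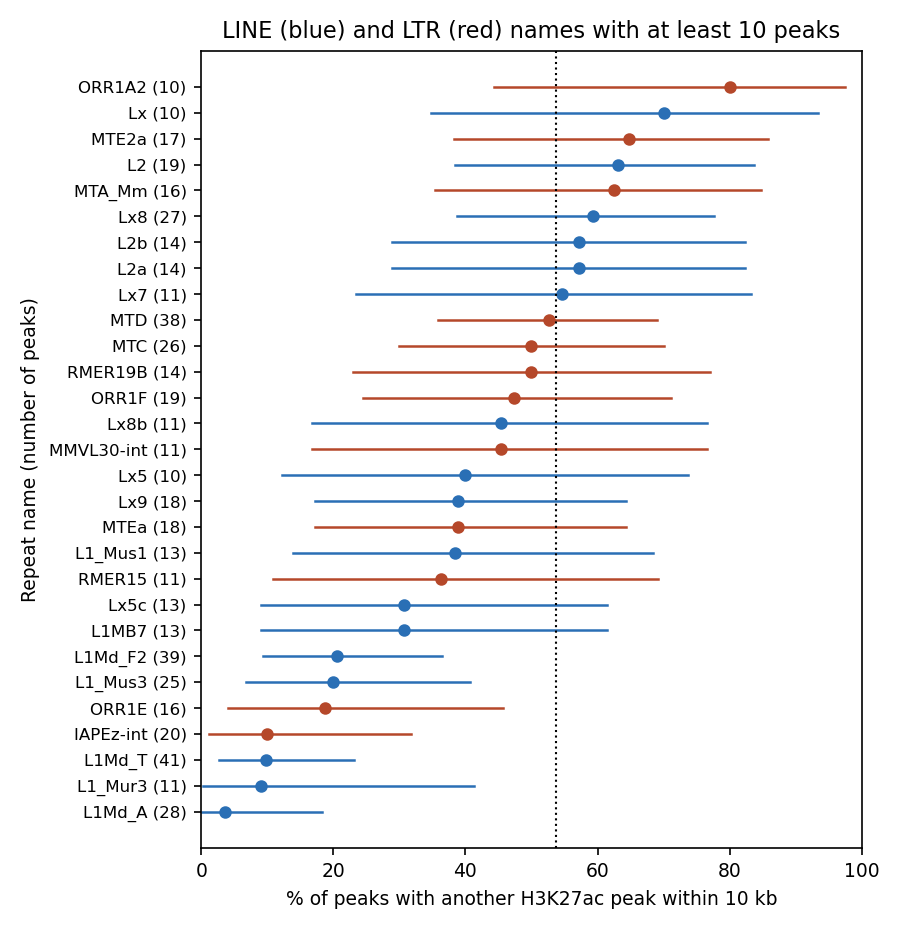
Percentage of peaks with another H3K27ac peak within 10 kb (x axis) for each of the 29 repeat names with at least 10 members (y axis, number of peaks in brackets), LINE names in blue and LTR names in red. Points are shares, lines exact 95% intervals, and the dotted line is the 53.7% of all H3K27ac peaks; L1Md_A is lowest at 3.57% and ORR1A2 highest at 80.0%.

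The internal part of MMVL30, a virus-like element of the ERV1 family, had 11 peaks with a median score of 46 (28 to 77) and a median TSS distance of 12340 bp. Of these, 3 stood in a row 5278 to 8108 bp upstream of Dhx40, which encodes an RNA helicase, at chr11:86812414-86813462, chr11:86814271-86814895 and chr11:86815482-86816055. Their scores were 77, 46 and 33. They stood close together under the same repeat name, each counts as 1 of the 11, and whether they are independent sites was not tested. The highest-scoring peak of the name, 83, lay 47852 bp upstream of Cyp7b1, an oxysterol hydroxylase gene.

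The highest-scoring member was also the highest-scoring of all 17450 H3K27ac peaks. This peak, chr7:124464220-124464650, lay in an intergenic L1Md_T element with a score of 351 and a width of 431 bp. The nearest TSS, of the noncoding RNA 3100003L05Rik, was 244500 bp away, and the nearest other H3K27ac peak 979999 bp away. The reads were not analysed here, and the part of multiply mapped reads in this peak, which lies in a family of near-identical copies, was not tested. The next LINE peak scored 120, in an L1ME4a element in intron 1 of the noncoding gene BB123696, with a gap of 27305 bp. The peak in intron 1 of Lsamp, a cell adhesion gene best known from neurons, at chr16:40614222-40614693, was also in a young L1 (L1Md_A, score 95), 630093 bp from the TSS and 442716 bp from the next peak. These isolated peaks in young L1 copies were 431 and 472 bp wide, against medians of 423 bp for LINE peaks and 379.5 bp for L1Md names.

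Of the 10 highest-scoring LINE peaks, 6 had another H3K27ac peak within 10 kb. An L2b peak of score 102 and 1971 bp, chr7:110705626-110707596, lay 61595 bp upstream of Ampd3, which encodes AMP deaminase, and 697 bp from its neighbour. An L1_Mus1 peak of score 82, chr16:45030122-45030948, lay 63476 bp upstream of Ccdc80, which encodes a secreted protein of fat tissue, with a neighbour at 328 bp. An Lx peak of score 100 near Ube2v2 had a neighbour at 384 bp, and an L1MC3 peak of score 75 near Kpna2 had one at 440 bp. An L1M6 peak of score 99 near Gm16675 and an L1ME4a peak of score 82 near Mir467h had neighbours at 4311 and 1262 bp. The widest member of all, 2564 bp at chr14:30109010-30111573, scored 100 in an Lx4A element in intron 20 of Cacna1d, a calcium channel gene, with the TSS of Chdh as the nearest and a gap of 27292 bp to the next peak.

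Among LTR peaks the highest score, 127, belonged to an MLT1A0 element in intron 8 of Slc28a1, a nucleoside transporter gene, at chr7:81133216-81134412. A peak of score 125 and 1952 bp lay in RLTR35B_MM in intron 10 of Irak2, a kinase gene of interleukin-1 signalling, at chr6:113689657-113691608. A second peak of score 125 lay in MT2B 2915 bp upstream of Gpi1, which encodes the glycolytic glucose phosphate isomerase, at chr7:34232619-34233884. A further peak of score 125 was in RMER17A2 in intron 7 of 4930486L24Rik. An intergenic MLTR14 peak of score 108 lay 21450 bp upstream of Nedd4, a ubiquitin ligase gene, with a neighbour at 489 bp. MER21C elements held peaks of score 102 at 84882 bp from Swap70 and of score 97 at 98704 bp upstream of Errfi1, which encodes a feedback inhibitor of the EGF receptor. ORR1G in intron 18 of Uroc1, nearest to Zxdc (94), and ORR1F 88566 bp upstream of Atp8b1, a phospholipid flippase gene (89), completed the 10 highest together with Erbin. Except at Erbin, where the gap was 65154 bp, the nearest other peak of these 10 lay within 10 kb. The widest members after Cacna1d were in RMER17D2 in intron 1 of Rasa3 (2270 bp), L1Md_F3 in intron 4 of Mmp27 (2192 bp), L2b near A730020M07Rik (2190 bp) and L1MB2 in intron 19 of Med24, nearest to Csf3 (1983 bp).

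Members coincided with Foxp4 peaks in 52 cases. Foxp4 is a forkhead transcription factor, and a member was counted when it shared at least 1 bp with a Foxp4 peak. These were 4.20% of members (3.15 to 5.47), against 7.95% of all H3K27ac peaks, 4.06% of SINE peaks (2.96 to 5.41) and 7.02% of peaks outside repeats (6.49 to 7.57). The share was 4.96% for LTR peaks (3.46 to 6.87) and 3.26% for LINE peaks (1.94 to 5.10), with overlapping intervals. The difference from peaks outside repeats depended on the overlap rule and on width. With a minimum of 50% of the width covered, the shares were 2.42% for members and 2.13% outside repeats. Among H3K27ac peaks no wider than the list median they were 3.92% and 4.11%. A setting without Foxp4 peaks at recurrent scores removed 12388 of the 16938 Foxp4 peaks on all chromosomes and left shares of 1.78% (22 members) and 4.37%.

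In the other direction, the share of Foxp4 peaks in these repeats that met an H3K27ac peak was below that of the whole Foxp4 list. Foxp4 had 3572 LTR or LINE peaks among 16856 on chromosomes 1 to 19, with 9.56% of its peaks in LTR elements and 11.6% in LINEs, against 3.93% and 3.17% for H3K27ac. Of these 3572, 53 overlapped any H3K27ac peak (1.48%, 1.11 to 1.94), against 8.24% of all Foxp4 peaks and 6.87% of intronic and intergenic Foxp4 peaks outside LTR elements and LINEs (6.41 to 7.35). An H3K27ac LTR or LINE peak was overlapped by 30. L1Md names made up 32.7% of Foxp4 LINE peaks (30.6 to 34.8) and 21.7% of H3K27ac LINE peaks, whereas L2 made up 4.33% (3.48 to 5.33) and 9.58% (7.26 to 12.3). ERVL-MaLR held 45.3% of Foxp4 LTR peaks and 46.4% of H3K27ac LTR peaks, and ERVK 31.4% and 30.9%, with overlapping intervals. The lists come from libraries of unknown depth, which limits comparison between them.

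The highest-scoring members with a Foxp4 peak were the Lx peak near Ube2v2 (chr16:15355774-15356505) and the L1Md_A peak in Lsamp, where the Foxp4 scores were 49 and 85. An MTD peak of score 82 in intron 2 of Dapk1, a kinase gene linked to cell death, at chr13:60644908-60645435, had a Foxp4 score of 41. An RMER12 peak of score 65 lay 17056 bp upstream of Slc1a5, the glutamine transporter gene, at chr7:16763841-16764739, with a Foxp4 score of 49. The L2c peak in Sec23ip had a Foxp4 score of 36. An L1MC5a peak of score 54 in intron 10 of Babam2 was nearest to the TSS of Fosl2, which encodes an AP-1 factor, and had a Foxp4 score of 34. The peaks at A730020M07Rik (L2b, 74), Lrrfip1 (L2c, 51), Atp6ap1l (Lx3_Mus, 51) and Arrdc4 (RLTR26B_MM, 51) had Foxp4 scores of 34, 34, 27 and 27. The recurrent Foxp4 scores were 21, 27, 34, 41, 49 and 57. Of these highest-scoring members, those in Lsamp and Sec23ip alone had a Foxp4 score off these values, so the setting without recurrent scores drops the others. The highest Foxp4 score on a member, 88, was on an RLTR33 peak of H3K27ac score 26 near Gm14496, chosen after its value was seen.

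Of the 1238 members, 1237 had a nearest gene identifier, and they were assigned to 1078 genes, of which 947 had 1 member, 108 had 2 and 23 had 3 or more. The most for 1 gene was 4, at 2310001H17Rik, Gda, Babam2, Plpp3 and Zfp985. At 2310001H17Rik, a noncoding gene, ORR1C1, RMER13B, RLTR16C_MM and Lx5 peaks of scores 89, 82, 36 and 31 lay between chr6:129211523 and chr6:129222312. At Gda, which encodes guanine deaminase, scores ran from 43 to 57. At Babam2, a subunit gene of a deubiquitinase complex, they ran from 39 to 46 across introns 3 to 6. At Plpp3, a lipid phosphatase gene, the 4 peaks lay 297146 to 401555 bp from the TSS with scores from 33 to 44. The 4 peaks assigned to Zfp985 lay in intron 1 of Zfp982 with scores from 20 to 41. Slc28a1, Errfi1 and Cyp7b1 had 3 each, with highest scores of 127, 97 and 83. Foxp1, a paralogue of Foxp4, also had 3, an ORR1F peak of score 55 in intron 1 and L1MA4 and MTB peaks of scores 36 and 28 with a gap of 546 bp, and none overlapped a Foxp4 peak.

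By gene list, members were found most often near genes of the extracellular matrix. A protein-coding gene was the nearest gene of at least 1 member for 887 of 20665 (4.29%). In the list of 30 matrix and adhesion genes it was 12 (40.0%), namely Col3a1, Thbs2, Lox, Lama4, Fbn1, Adamts1, Adamts5, Col8a1, Col6a1, Col6a2, Loxl2 and Col5a1. Their highest-scoring peaks were an Lx2 peak 45265 bp from Col3a1, a fibrillar collagen gene (65, chr1:45356300-45357306), an L1Md_F2 peak near Thbs2, which encodes thrombospondin 2 (58, chr17:14659745-14660910), and an Lx5 peak near Lox, the collagen cross-linking enzyme gene (51). The list was rich in H3K27ac peaks of every kind. It held 169, of which the 16 members were 9.47%, against 6.70% over all protein-coding genes. Among genes with any H3K27ac peak, 46.2% of the list and 11.4% of all protein-coding genes had a member. These shares do not allow for the number of peaks per gene. The list had 169 peaks on 26 such genes, against 15160 on 7801 over all protein-coding genes. Whether members favour matrix genes beyond this was not tested.

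TGF beta and BMP signalling had 6 of 27 genes (22.2%). An L3b peak of score 54 lay 2855 bp upstream of Id3, which encodes an inhibitor of helix-loop-helix factors, and intronic peaks lay in the receptor genes Tgfbr3 (43, L2b) and Bmpr1b (43, L1Md_A). Actin and focal contact genes also had 6 of 27, led by Zyx (51, Lx8), Arhgap24 (40, L1Md_F2) and Tns1 (35, RLTR25B). The glucocorticoid, clock and stress list had 4 of 22, led by the MER21C and L1MC1 peaks upstream of Errfi1 (97 and 55) and an MTB-int peak of score 54 near Mt1, which encodes a metallothionein. Of AP-1, Tead and Runx factor genes 3 of 24 had a member, with an L1MB4 peak of score 68 in intron 1 of Tead4 and L1MC5a and MLT1L peaks nearest to Fosl2 (54 and 39). Members made up 7.84% of the H3K27ac peaks of the TGF beta and BMP list (8 of 102) and 6.09% of the actin list (7 of 115). The shares were 6.56% for the glucocorticoid list (8 of 122) and 3.88% for the AP-1, Tead and Runx list (4 of 103). Over all protein-coding genes the share was 6.70%. With so few members per list, no difference from it was tested.

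At adipocyte genes 9 of 10 members scored below the list median of 40, as did 66.4% of all members. Among lipid storage and lipolysis genes the count was 4 of 26 (15.4%). The peaks lay upstream of Gpam, which encodes the acyltransferase that starts triglyceride synthesis (L1MA4, 35, 12931 bp), Lpl, lipoprotein lipase (ORR1E, 27, 14708 bp), Lpin1 (MER74A, 26, 8909 bp) and Fabp5 (L1Md_T, 24). Of adipogenic transcription factor genes 3 of 24 had a member (12.5%). Klf9 had 3, in L2, MTEa and MTEb (49, 36 and 22), Klf4 had 2 at 360705 and 318627 bp upstream (23 and 20), and Ebf2, a determinant of brown and beige fat, had an MTD peak of score 22 in intron 6. As with the matrix list, both lists held many H3K27ac peaks. Members were 4.65% of these for lipid genes (4 of 86) and 4.80% for the transcription factors (6 of 125). The share over all protein-coding genes was 6.70%, and with so few members no difference from it was tested. Ebf2 was also the single gene with a member among 22 thermogenic genes, and Rptor (ORR1A2-int, 29) the single one among 23 insulin signalling genes. At 4.55% and 4.35% these lists were near the background of 4.29%.

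In the list of 24 retrotransposon silencing genes 1 had a member (4.17%), Zfp809, whose product recruits silencing machinery to murine retroviral sequence. The peak lay in RLTR1F_Mm in intron 1, 1522 bp from the TSS, at chr9:22226995-22227473 with a score of 40. Genes named Zfp with a number were nearest to 2.18% of members and 1.91% of all peaks. For RLTR names the share was 8 of 102 (7.84%, 3.45 to 14.9), with scores of 24 to 41, of which Zfp985 and Zfp369 had 2 each. Of marker lists for other cells, macrophage genes had 0 of 16, skeletal muscle 0 of 18, endothelial 1 of 16 (Kdr, Lx9, 43) and neuronal 1 of 17 (Grin2b, L1MC4, 37). Over all protein-coding genes the share was 4.29%, at which lists of this size would hold few such genes. In these lists 5, 3, 6 and 3 genes had any H3K27ac peak, so the counts cannot show that members are absent there.

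**Figure D5:**
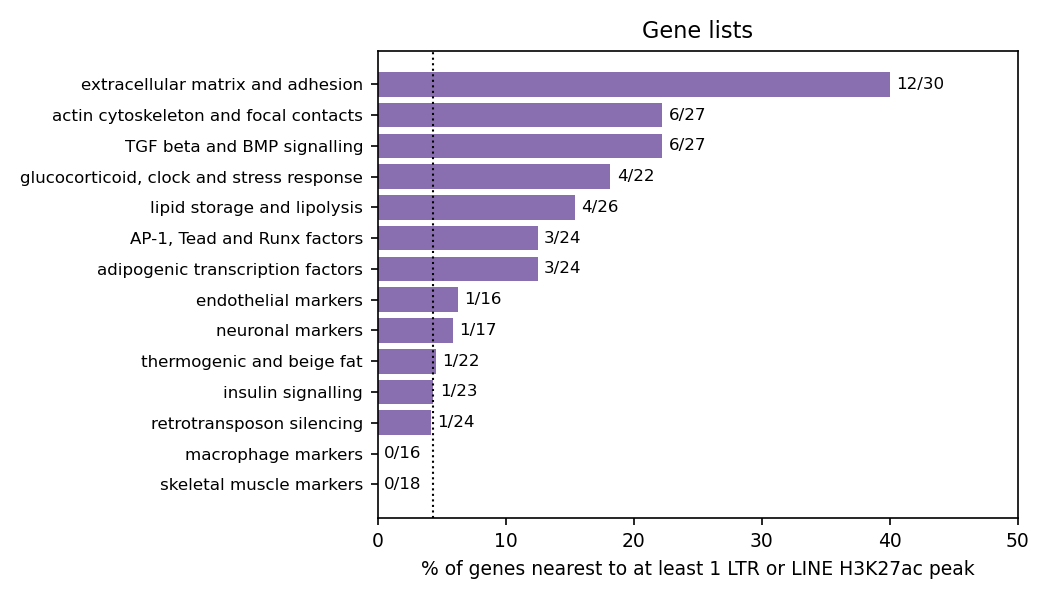
Percentage of genes in each list (y axis) that were nearest to at least 1 LTR or LINE H3K27ac peak (x axis), with the number of such genes of those matched. The dotted line is the 4.29% of all protein-coding genes; the matrix and adhesion list is highest at 12 of 30.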

How the data were processed

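ChIP-seq libraries of input DNA, Foxp4 and H3K27ac, 1 each, were assigned by sample title. The labels name an antibody for Foxp4 alone. Per the submitters' processing notes, Bowtie2, Picard, SAMtools, MACS2, deepTools 3.3.0 and mm10 were used. Per the file headers, the deposited peak lists were annotated with HOMER. For each peak the deposited lists give the authors' whole-number score, a signed distance in bp from its centre to the nearest TSS, and the class and repeat at its centre. The sources used here give no peak-calling settings, and do not say how the input and multiply mapped reads were handled. The input library was not analysed here.

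Members and gene lists were chosen with earlier results of these data known. Computed here were shares with exact 95% intervals, medians with order-statistic intervals, overlaps of at least 1 bp, and gaps between peak edges on all chromosomes. Repeats were grouped as rodent or mammalian by patterns in their names. Gene symbols and promoter sequences came from RefSeq tables of GRCm38.p6 (promoter windows on chromosome 18 were not searched), which matched 312 of 320 listed symbols. A score counted as recurrent when 100 or more peaks held it, over 3 times the number at each adjacent value.

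Peaks were named by rule: the 10 highest-scoring of each class, the 5 widest, the 10 highest-scoring with Foxp4 overlap or within 1000 bp of a TSS, genes with most members (up to 8), and up to 3 highest-scoring per gene list. Repeat names followed the number of members. The MMVL30, RLTR33, Foxp1 and Zfp peaks, the peaks at a limit, and further members of the short lists were chosen after their values were seen. Alternatives covered the score, chromosomes, annotation classes, overlap rule, window and distance measure. The leave-out of L1Md and IAP names was chosen after seeing the data. Overlap and interval code was tested on simulated data. Software was matplotlib 3.10.9, scipy 1.17.1, pandas 2.3.3 and numpy 2.4.6 under Python 3.11.15.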

Additional observations from a re-analysis of the deposited data

How the results depend on the processing

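Of 52 alternative values for 9 results, 37 lay within the 95% interval of the reported value. This count is no measure of robustness, because some values were fixed or could hardly move. All members were intronic or intergenic, so keeping only such peaks could change the share of the set alone. Keeping the higher-scoring 50% raises the median score by construction and removes possible neighbours. In the higher-scoring 50% of each list LTR and LINE peaks were 4.40% of all peaks, with a median score of 51, a median width of 516 bp, a neighbour within 10 kb in 33.1% and rodent names in 67.4%. Counting only intronic and intergenic peaks raised the share of LTR and LINE peaks to 9.70%. The neighbour share was 32.5% within 5 kb and 53.9% within 20 kb, and at both windows SINE peaks and peaks outside repeats had higher shares than LTR and LINE peaks. Foxp4 overlap was 2.42% with at least 50% of the peak covered, 2.50% with the peak centre inside a Foxp4 peak and 1.78% without recurrent Foxp4 scores. Without L1Md and IAP names, a setting added after seeing the data, the share of the set was 6.29%, its LTR share 60.2%, its neighbour share 46.2% and its rodent-named share 69.9%. Adding X and Y, or classes written with a question mark, left each of the 9 values within its interval. These settings hardly changed the set, which then held 1252 and 1239 peaks. No paired analysis was possible because each antibody has 1 library. Depth is unknown, and the handling of multiply mapped reads limits counts of near-identical repeats.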
